A study of Mus musculus with 21 samples.

Results

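Among 15 tumors of aP2-Cre/+;SmoM2/+ mice, the 5 tumors with the highest and the 5 with the lowest signal of Ckm were compared across all other genes measured. Ckm encodes the muscle form of creatine kinase, an enzyme that adult muscle fibres make in large amounts. The 10 tumors were chosen by that measured value: the intensities deposited without normalization were quantile-normalized over all 21 arrays of the series, the single Ckm probe was read, and the tumors were ranked. They are called high-Ckm and low-Ckm tumors here, and the 5 tumors between them are the middle tumors. The remaining 6 of the 21 arrays hold 3 Myogenin-Cre/+;SmoM2/+ tumors and 3 samples of sternocleidomastoid, a neck muscle, from mice whose genotype is given as SmoM2/+ with no Cre named. Every animal was of mixed C57Bl/6 and 129X1/SvJ background and carried SmoM2, an activated form of Smoothened that switches on Hedgehog signalling once Cre has released it. The aP2-Cre transgene uses the aP2 (Fabp4) promoter, whose gene encodes a fatty-acid-binding protein best known from adipocytes, and the label numbers 1 mouse for each tumor. The Myogenin-Cre transgene uses the promoter of the gene for Myogenin, which acts as muscle cells differentiate. The labels number the muscle samples 1 to 3 and do not name their animals.

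Tumors of the Hedgehog pathway in muscle resemble embryonal rhabdomyosarcoma, whose cells switch on the early myogenic factors MyoD and Myogenin but stop short of becoming adult fibres. A muscle cell that goes on to mature replaces its embryonic contractile proteins with adult ones and builds up the machinery of fuel use. Creatine kinase carries energy as phosphocreatine from mitochondria and glycolysis to the myofibrils. Its level is therefore often read as a mark of maturation, and the high-Ckm tumors were taken as the more differentiated ones when the comparison was set up. The genes that bear on that label are given below by their roles.

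The values that chose the tumors are a description and were not tested. Ckm, in quantile-normalized log2 intensity, was 13.95, 13.63, 13.35, 12.74 and 12.54 in the high-Ckm tumors 90, 68, 128, 89 and 64. It was 11.82, 11.09, 10.75, 10.50 and 8.56 in the low-Ckm tumors 95, 165, 65, 174 and 115. Per-tumor values below follow these same orders, from the highest to the lowest Ckm. The middle tumors 104, 144, 164, 140 and 135 had 12.47, 12.34, 12.17, 12.09 and 11.89. The step into the high class, from tumor 104 to tumor 64, was thus from 12.47 to 12.54, and the step into the low class, from tumor 135 to tumor 95, was from 11.89 to 11.82, so the borders cut through a continuous range. Tumor 115 lay farthest from the rest. The Myogenin-Cre tumors had 12.90 to 13.54, within the range of the high-Ckm tumors, and all 3 muscle samples, at 15.05 to 15.15, lay above every tumor.

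**Figure D1:**
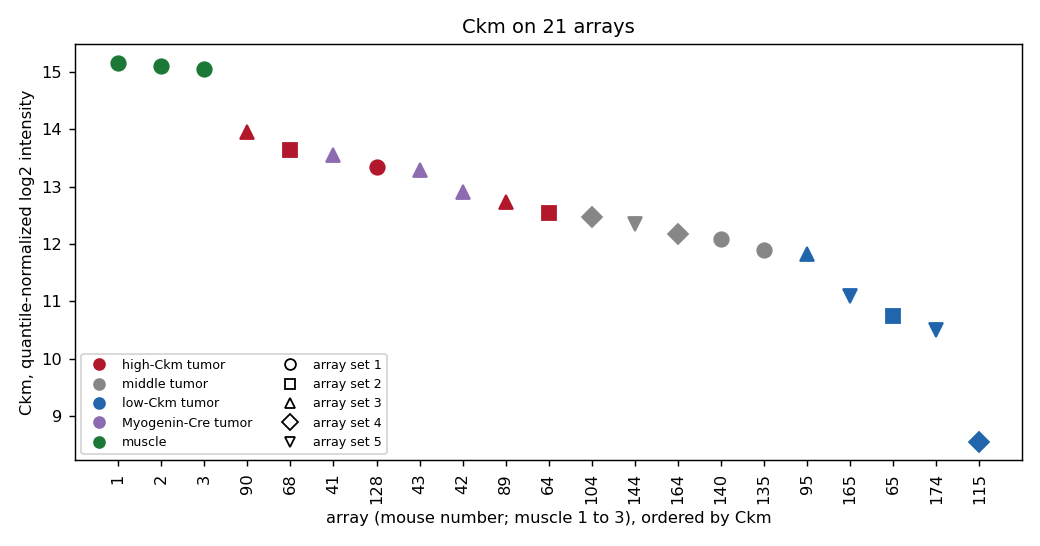
Ckm (quantile-normalized log2 intensity) on each of the 21 arrays, ordered by level, with colour for the class or group and shape for the array set. Muscle sits at 15.05 to 15.15, the high-Ckm tumors at 12.54 to 13.95 and the low-Ckm tumors at 8.56 to 11.82.

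The arrays fall into 5 sets, recognised by the value distributions that the authors' own normalization gave them. Only set 2 (tumors 64 and 68 against 65) and set 3 (tumors 89 and 90 against 95) hold both high-Ckm and low-Ckm tumors, while the high-Ckm tumor 128 and the low-Ckm tumors 115, 165 and 174 lie in sets without the other class. Between 35.7% and 39.8% of 45281 probes had a detection p under 0.01 on the arrays of the 15 tumors. Transcripts of tissue other than muscle moved with the classes. The mean level of 12 measured salivary gland genes (of 13 on the array) was 4.95 to 5.04 in the low-Ckm tumors and 6.77 to 10.42 in the high-Ckm tumors, against 5.04 to 9.06 in the middle tumors, 5.82 to 10.45 in the Myogenin-Cre tumors and 5.16 to 8.41 in muscle. Of these 12 genes, 6 were detected in no low-Ckm tumor, among them the secreted proteins Dcpp3, Bpifa2 and Smgc. The mean of 10 measured epidermal genes was 5.80 to 6.21 in the low-Ckm and 6.06 to 8.94 in the high-Ckm tumors. The part of this other tissue in the results below was not tested, and in RNA of whole tumors fewer cells of a type and less RNA per cell cannot be told apart.

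Of 11033 genes tested, 146 (1.32%) were higher and 14 (0.127%) were lower in the high-Ckm tumors, 160 (1.45%) in all (limma, adjusted p under 0.05), with Ckm left out of the test. At an unadjusted p under 0.05, which lists without calls are described by below, 1068 genes (9.68%) were higher and 968 (8.77%) lower. The adjusted p-values describe how genes go with Ckm among these tumors, because the classes were drawn from a measured level of the same arrays. The genes that were higher had a median log2 difference of 1.08, and 84 of them differed by at least 2-fold. In 120 of the 146 every high-Ckm tumor lay above every low-Ckm tumor. Over all genes tested, 300 (2.72%) were separated in that direction and 119 (1.08%) in the other, and the median log2 difference was -0.02. The counts depended on single tumors. Without tumor 115 they were 25 higher and 1 lower, without 174 they were 7 and 0, without 128 they were 10 and 0, without 90 they were 14 and 0, without 68 they were 39 and 1, and without 65 they were 59 and 5. Without tumor 64 they were 302 and 40, without 95 they were 322 and 326, and without 165 they were 112 and 7. All 146 and all 14 genes kept their direction in each of these fits. The fits reuse arrays on which the genes were chosen, so a kept direction adds no support.

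The array sets weighed on the calls as well. With the array set as a fixed block in the limma fit, 0 genes passed in either direction (the smallest adjusted p was 0.0894, and 783 genes were higher and 660 lower at an unadjusted p under 0.05). The median log2 difference of the 146 genes was 1.03 in that fit and also 1.03 without tumor 115. Within set 2 and within set 3, each with 2 high-Ckm tumors and 1 low-Ckm tumor, all 146 genes were higher in the high-Ckm tumors. Their median log2 differences were 0.80 and 0.88. Of the 14 genes called lower, 0 were higher within set 2 and 1 was higher within set 3. Over all genes tested 45.9% were higher within set 2 and 43.4% within set 3. These arrays are part of the comparison itself. Of the 48 called genes that are named in the text, 0 passed with the set as a fixed block, 42 passed with the set as a random block, and 11 passed without tumor 115: Ckmt2, Sdhb, Cox7a1, Phkg1, Myoz1, Mybpc2, Tuba8, Mlf1, Rpl3l, Bpifa2 and 2310057J18Rik. Tuba8 and 2310057J18Rik were the only ones of the 48 to pass whichever of the 10 tumors was left out. Of these, 2310057J18Rik was above background in 5 high-Ckm and 0 low-Ckm tumors. It entered the test through arrays on which it is bright, so its passing supports nothing.

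**Figure D2:**
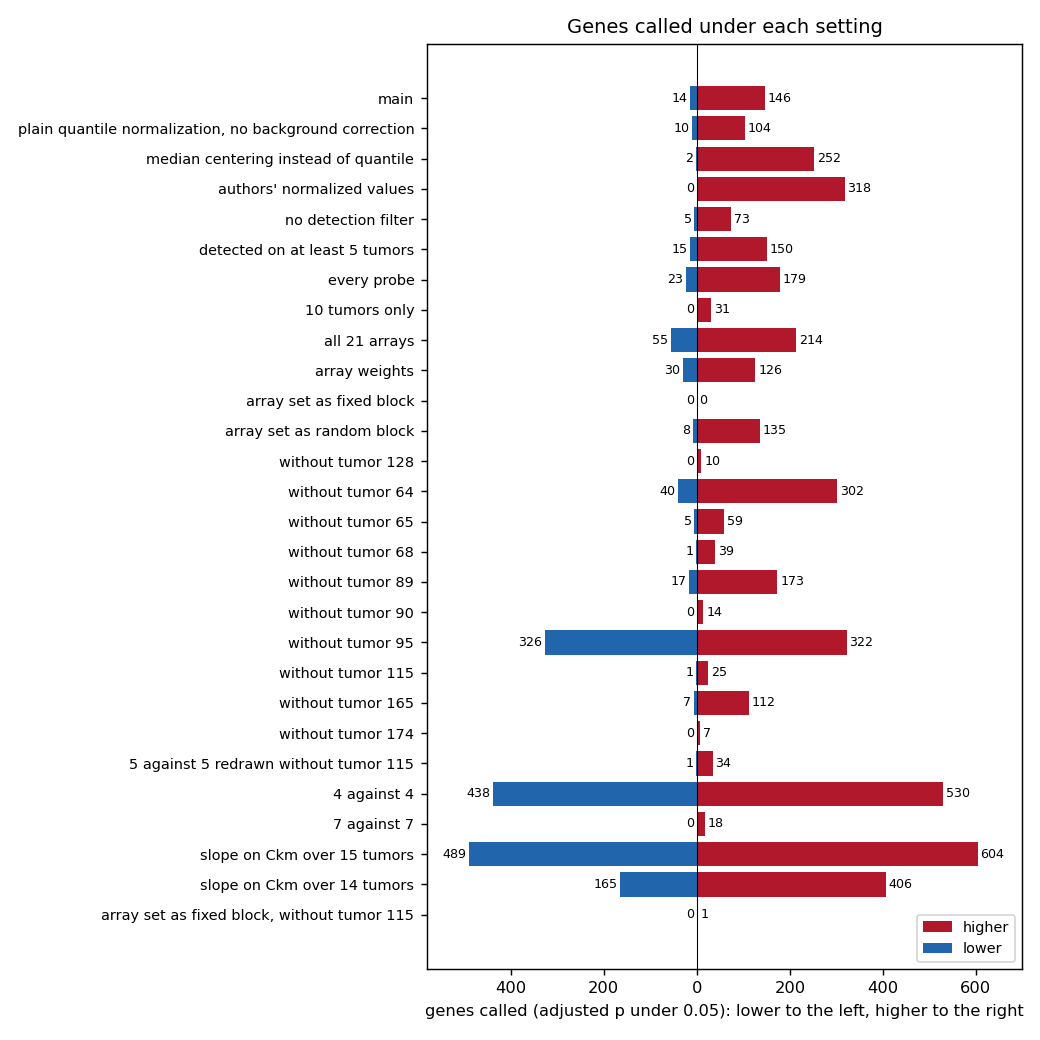
Number of genes called (adjusted p under 0.05) in each fit, with genes higher in high-Ckm tumors to the right and lower to the left. The counts run from 0 and 0 with the array set as a fixed block to 604 and 489 for a slope on Ckm over 15 tumors.

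Of the 146 genes that were higher, 40 belonged to a gene list, and 24 of these were genes of energy supply. Over 4 lists of energy metabolism, 24 of 75 measured genes were higher and 0 were lower, with a median log2 difference of 0.52, against the 1.32% of all genes. The enzymes of the phosphocreatine shuttle stood closest to Ckm in function. Ckmt2, the mitochondrial creatine kinase of muscle, had levels of 13.29, 12.80, 13.28, 12.52 and 12.71 in the high-Ckm tumors and 11.35, 11.77, 11.34, 10.38 and 9.48 in the low-Ckm tumors. No high-Ckm tumor reached down to a low-Ckm one, and tumor 115 was lowest. The difference was 4.15-fold (log2 2.05, SE 0.35, adjusted p = 0.0186). Ckb, the brain form of the enzyme that Ckm replaces in maturing muscle, had a log2 difference of -0.42 (SE 0.14, adjusted p = 0.125), with the classes overlapping. The phosphocreatine list as a whole had 1 of 8 measured genes higher, against 1.32% of all genes, and 0 lower.

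Respiratory chain subunits gave the most calls of any list. Of 27 measured members of the oxidative phosphorylation list, 10 were higher and 0 were lower, against 1.32% and 0.127% of all genes. In 16 every high-Ckm tumor lay above every low-Ckm tumor, against 2.72% of all genes. The list's median log2 difference was 0.45. Cox7a1, the muscle and heart form of a cytochrome c oxidase subunit, had 13.40, 12.51, 13.37, 12.20 and 12.34 in the high-Ckm tumors and 11.06, 11.09, 10.96, 9.73 and 8.22 in the low-Ckm tumors, a 5.87-fold difference (adjusted p = 0.0188). Tumors 174 and 115 carried the lowest levels, and without tumor 115 the log2 difference went from 2.55 to 2.06 (adjusted p = 0.0189). Sdhb, the iron-sulphur subunit of succinate dehydrogenase, had 11.27, 10.64, 11.27, 10.70 and 10.49 against 10.09, 10.01, 9.93, 9.94 and 9.76. Its classes were separate and the difference was 1.91-fold (adjusted p = 0.0157), but a second Sdhb probe had a log2 difference of -0.23 (adjusted p = 0.431). Cox8b, another muscle and heart form, was 1.95-fold higher (adjusted p = 0.0217), and Ndufs3, a subunit of complex I, was 1.54-fold higher (adjusted p = 0.019).

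Enzymes that feed the respiratory chain were higher too. In the list of the tricarboxylic acid cycle and fatty acid oxidation 8 of 20 measured genes were higher, against 1.32% of all genes. In that list 0 were lower and the median log2 difference was 0.64. Idh3a, a subunit of the cycle's NAD-dependent isocitrate dehydrogenase, had 10.99, 10.15, 10.44, 10.03 and 9.96 in the high-Ckm and 9.48, 9.80, 9.28, 9.18 and 9.30 in the low-Ckm tumors. The classes were separate, with tumor 90 highest (log2 difference 0.91, SE 0.17, adjusted p = 0.0223). Fh1, fumarate hydratase, differed by a log2 of 0.84 (adjusted p = 0.0275). A second probe of each did not pass, with log2 differences of 0.40 for Idh3a (adjusted p = 0.349) and 0.23 for Fh1 (adjusted p = 0.645). Cpt1b, which admits fatty acids to muscle mitochondria, was 2.83-fold higher (adjusted p = 0.0369). Ppargc1a, a coactivator that drives mitochondrial gene expression, had 8.09, 7.18, 7.69, 6.82 and 6.52 in the high-Ckm tumors and 6.46, 6.08, 5.72, 4.996 and 4.80 in the low-Ckm tumors, of which 3 were above background (log2 difference 1.65, SE 0.35, adjusted p = 0.0336).

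Glycogen and sugar use gave calls in the same direction in 5 of 20 measured genes, against 1.32% of all genes. In this list 0 were lower and the median log2 difference was 0.57. Phkg1, the catalytic subunit of muscle phosphorylase kinase, which starts glycogen breakdown, had 9.44, 8.39, 7.82, 7.84 and 7.49 in the high-Ckm and 6.74, 6.96, 5.94, 5.77 and 4.86 in the low-Ckm tumors. It was separate between the classes and 4.42-fold higher (adjusted p = 0.0188). Fbp2, the muscle form of fructose-bisphosphatase, was above background in 3 low-Ckm tumors and 4.96-fold higher (adjusted p = 0.0186). Slc2a4, the insulin-regulated glucose transporter GLUT4, was 2.91-fold higher (adjusted p = 0.0322) and had its lowest level, 6.42, in tumor 174. Aldoa, the aldolase of muscle, was 1.60-fold higher (adjusted p = 0.0369). Pygm, muscle glycogen phosphorylase, and Eno3, muscle enolase, had log2 differences of 0.91 (adjusted p = 0.0695) and 0.69 (adjusted p = 0.0554) and did not pass.

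Promoters are shown for Ckm, which ranked the tumors, for the muscle genes Ckmt2 and Cox8b and for the salivary gene Bpifa2, all 3 of which were called higher. The sequences are those of RefSeq on build GRCm38.p6, from 250 bases before to 50 bases after the gene's start, written 5′ to 3′ on the gene's strand. Capitals mark CAGCTG, a form of the E-box that MyoD and Myogenin bind, which reads the same on both strands.
Ckm, chr7:19410844-19411143, + strand: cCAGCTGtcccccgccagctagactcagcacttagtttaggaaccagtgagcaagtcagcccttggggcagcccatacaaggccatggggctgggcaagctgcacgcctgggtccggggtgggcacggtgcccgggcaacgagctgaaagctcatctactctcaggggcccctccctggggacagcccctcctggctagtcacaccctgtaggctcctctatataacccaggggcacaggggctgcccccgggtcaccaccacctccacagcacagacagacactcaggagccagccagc
Ckmt2, chr13:91876836-91877135, - strand: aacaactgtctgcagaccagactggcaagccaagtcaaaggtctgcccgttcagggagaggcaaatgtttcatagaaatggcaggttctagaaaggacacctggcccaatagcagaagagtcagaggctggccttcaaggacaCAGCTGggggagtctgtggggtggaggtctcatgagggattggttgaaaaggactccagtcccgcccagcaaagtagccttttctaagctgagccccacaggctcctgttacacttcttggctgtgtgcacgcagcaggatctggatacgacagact
Cox8b, chr7:140900397-140900696, - strand: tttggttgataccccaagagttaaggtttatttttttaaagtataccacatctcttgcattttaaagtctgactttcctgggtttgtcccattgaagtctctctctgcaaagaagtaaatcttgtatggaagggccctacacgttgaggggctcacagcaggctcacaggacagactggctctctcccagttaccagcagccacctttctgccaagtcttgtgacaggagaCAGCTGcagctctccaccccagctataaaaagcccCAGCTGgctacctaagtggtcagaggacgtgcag
Bpifa2, chr2:154008026-154008325, + strand: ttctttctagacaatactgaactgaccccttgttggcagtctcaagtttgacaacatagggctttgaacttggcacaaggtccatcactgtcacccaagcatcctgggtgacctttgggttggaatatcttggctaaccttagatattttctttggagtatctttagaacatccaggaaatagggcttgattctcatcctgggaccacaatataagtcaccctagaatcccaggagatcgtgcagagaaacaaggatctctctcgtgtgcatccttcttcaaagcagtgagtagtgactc
The Ckm and Ckmt2 windows hold 1 such motif each, at -249 and -107 from the start, the Cox8b window holds 2, at -19 and 16, and the Bpifa2 window holds 0. Among 32851 promoters of all genes 16.3% hold CAGCTG. Of 148 promoters of the genes that were higher, 24 (16.2%) hold it, close to the share of all promoters. Of 25 promoters of called genes in the energy and fibre lists 7 hold it, and of 8 promoters of called salivary genes 0 do. A match is a run of letters in this window and no evidence of binding.

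The contractile apparatus differed in a few of its parts. In the list of fast and adult contractile genes 4 of 26 measured members were higher, against 1.32% of all genes, and 0 lower. The median log2 difference was 0.38. Myoz1, a Z-disc protein of fast fibres, had 11.55, 10.83, 10.83, 9.94 and 9.48 in the high-Ckm and 9.28, 8.38, 8.22, 7.91 and 6.17 in the low-Ckm tumors. Every high-Ckm tumor was above every low-Ckm one, tumor 115 was lowest, and the difference was 5.78-fold (adjusted p = 0.019). Mybpc2, the fast form of myosin-binding protein C, had 10.90, 10.38, 9.65, 10.02 and 9.70 against 8.65, 8.85, 8.24, 9.07 and 6.998 (3.41-fold, adjusted p = 0.0254). The fast troponin subunits Tnnt3 and Tnni2 were 1.59-fold higher each (adjusted p = 0.0194 and 0.046).

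Calcium handling and slow fibre genes gave fewer calls. Atp2a1, the calcium pump of fast fibres, was 1.48-fold higher (adjusted p = 0.0357). It was the only called member of the excitation-contraction coupling list, 1 of 18 measured genes, against 1.32% of all genes. The median log2 difference of that list was 0.29. Ryr1, the calcium release channel, had a log2 difference of 0.32 (adjusted p = 0.446). Of 15 measured slow and cardiac contractile genes 0 were called (limma; 1 was higher and 0 lower at an unadjusted p under 0.05), with a median log2 difference of 0.10, which was 0.06 without tumor 115 and 0.02 with the array set as a fixed block. Acta1, skeletal alpha-actin, had 15.04, 14.99, 14.99, 14.90 and 14.90 in the high-Ckm and 15.02, 15.16, 14.92, 14.99 and 15.08 in the low-Ckm tumors, and 14.87 to 15.03 in muscle. It was among the 15 brightest genes on every tumor array, where the brightest had 15.20 to 15.32, so no difference is read from this probe. The adult fast myosins Myh4 and Myh1 had log2 differences of 2.33 (SE 0.79, adjusted p = 0.132) and 0.78 (SE 0.26, adjusted p = 0.127). Myh4 ranged from 5.67 to 10.70 in the high-Ckm and from 4.65 to 7.68 in the low-Ckm tumors, so its spread within a class was wide.

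Several genes followed Ckm closely across the tumors without belonging to a list. Tuba8, an alpha-tubulin, had 8.49, 7.78, 8.16, 7.28 and 7.06 in the high-Ckm, 7.16, 7.47, 6.79, 6.54 and 6.69 in the middle and 6.19, 5.83, 5.42, 5.28 and 4.68 in the low-Ckm tumors. It was 4.84-fold higher (log2 2.28, SE 0.30, adjusted p = 0.0113), and its Spearman correlation with Ckm was 0.97 over the 15 tumors, given as a description because both were read from the same arrays. Rpl3l, a ribosomal protein found in striated muscle in place of its common paralogue, was 4.67-fold higher (adjusted p = 0.0186, rho = 0.96). Mlf1, a protein abundant in muscle, was 6.67-fold higher (adjusted p = 0.0157, rho = 0.95). St8sia5, a sialyltransferase, was 2.02-fold higher (adjusted p = 0.0223, rho = 0.96).

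**Figure D3:**
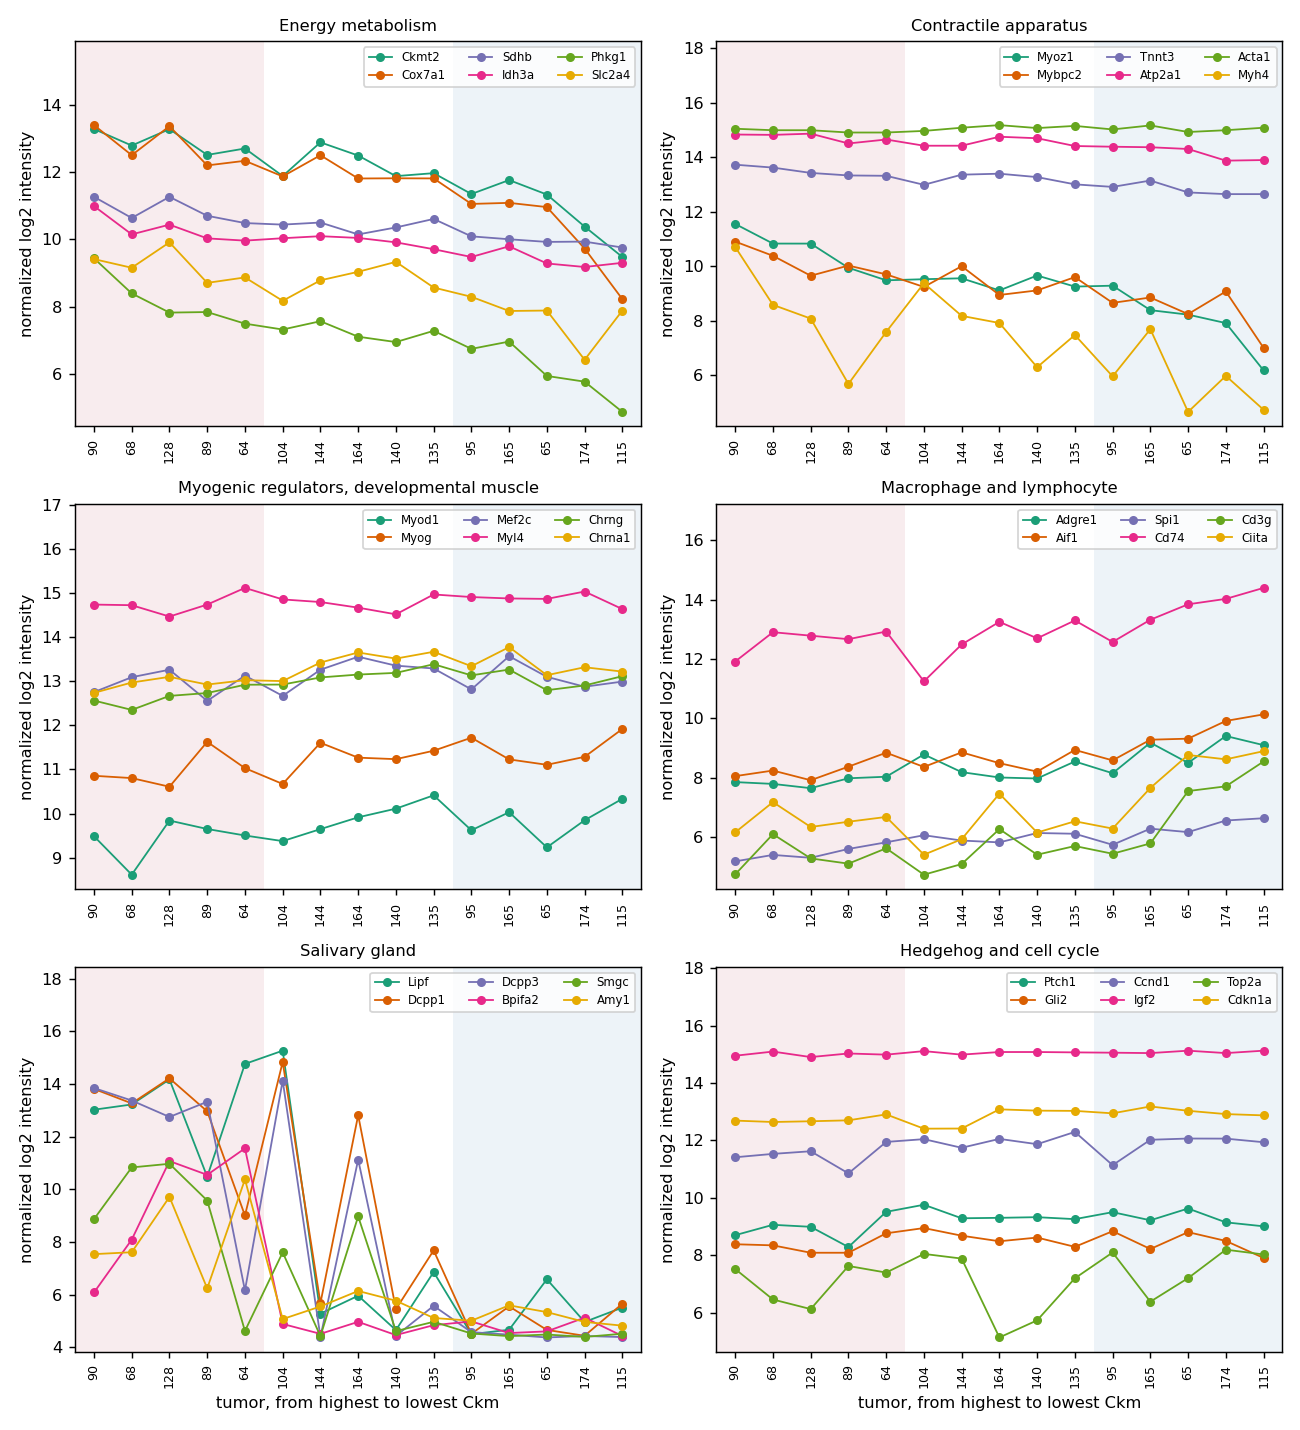
Normalized log2 intensity of named genes, by role, in the 15 aP2-Cre tumors, ordered from the highest Ckm (tumor 90) to the lowest (tumor 115), with the high-Ckm tumors shaded red and the low-Ckm tumors blue. Ckmt2 is at 13.29 in tumor 90 and 9.48 in tumor 115, Acta1 stays between 14.90 and 15.18, near the top of the scale, and Dcpp3 is at 4.38 to 4.58 in the low-Ckm tumors.

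The transcription factors that define the muscle lineage were not called. Of 22 measured myogenic regulators 0 passed (limma; 1 was higher and 1 lower at an unadjusted p under 0.05), with a median log2 difference of -0.04. Myod1 had 9.49, 8.62, 9.84, 9.65 and 9.50 in the high-Ckm tumors and 9.62, 10.03, 9.24, 9.85 and 10.34 in the low-Ckm tumors. The classes overlapped and the log2 difference was -0.39 (SE 0.25, adjusted p = 0.425). Myog had 10.86, 10.81, 10.61, 11.63 and 11.03 against 11.72, 11.23, 11.11, 11.29 and 11.92, again with overlap (log2 difference -0.47, SE 0.21, adjusted p = 0.248). Mef2c, a partner of these factors, differed by a log2 of -0.11 (SE 0.18, adjusted p = 0.781).

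Genes that embryonic muscle uses and adult muscle shuts off were not called either. Of 19 measured members of the developmental muscle list 0 passed (0 higher and 4 lower at an unadjusted p under 0.05), with a median log2 difference of -0.11 (-0.21 with the array set as a fixed block), and of 12 measured satellite cell and fusion genes 0 passed (1 higher and 2 lower at that level). Chrng, the fetal acetylcholine receptor subunit, had 12.56, 12.35, 12.67, 12.73 and 12.92 in the high-Ckm tumors and 13.13, 13.26, 12.80, 12.90 and 13.11 in the low-Ckm tumors (log2 difference -0.40, SE 0.12, adjusted p = 0.100). Chrna1, the alpha subunit, had log2 -0.41 (adjusted p = 0.128), and Vcam1, an adhesion molecule of myoblasts, -0.86 (adjusted p = 0.0705). In Chrna1 and Vcam1 every high-Ckm tumor was below every low-Ckm tumor, although neither passed. Myl4, the embryonic myosin light chain, was at 14.46 to 15.11 in the high-Ckm and 14.63 to 15.03 in the low-Ckm tumors, far above its mean of 9.10 in muscle. It was among the 30 brightest genes on every tumor array, near the top of the scale, so no difference between the classes is read from this probe. Of the genes that bear on the label of more and less differentiated tumors, those called were metabolic and contractile ones, and neither the regulators nor the embryonic genes included a call.

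Hedgehog response and growth genes showed no call in the lists that describe them, apart from 1 gene. Of 16 measured Hedgehog response genes 0 passed (0 higher and 1 lower at an unadjusted p under 0.05), with a median log2 difference of -0.13 (-0.25 with the array set as a fixed block). Ptch1, receptor and target of the pathway, had 8.70, 9.06, 8.99, 8.29 and 9.51 in the high-Ckm and 9.50, 9.22, 9.63, 9.15 and 9.01 in the low-Ckm tumors (log2 difference -0.39, SE 0.19, adjusted p = 0.291). Gli2, a transcription factor of the pathway, had log2 -0.12 (adjusted p = 0.776), and Ccnd1, cyclin D1, -0.37 (adjusted p = 0.346). The growth factor Igf2 was at 14.90 to 15.13 in the 15 tumors, also near the top of the scale, and at 12.08 to 12.11 in muscle.

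In the cell cycle, of 23 measured mitosis genes 0 passed (0 in either direction at an unadjusted p under 0.05). All 23 had differences below 0, while 5070 of all 11033 genes had differences above 0. The list's median was -0.33 (-0.02 with the authors' normalized values and 0.06 with 7 tumors against 7). Top2a, a topoisomerase of dividing cells, had 7.52, 6.46, 6.13, 7.63 and 7.40 against 8.10, 6.39, 7.21, 8.20 and 8.03 (log2 difference -0.56, SE 0.54, adjusted p = 0.627), a wide spread in both classes. Of 26 measured replication genes 1 was higher, against 1.32% of all genes. This was Ung, the uracil-DNA glycosylase (2.07-fold, adjusted p = 0.0357), but its other probe had a log2 difference of 0.02 (adjusted p = 0.940). In the list of cell cycle exit and p53 genes 0 of 16 passed (1 higher and 3 lower at an unadjusted p under 0.05). Its Cdk inhibitors Cdkn1a and Cdkn2a had log2 differences of -0.27 (adjusted p = 0.306) and -0.67 (adjusted p = 0.497), and Cdkn2a was above background in 2 high-Ckm and 4 low-Ckm tumors.

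Macrophage genes were lower in the high-Ckm tumors in part. Of 17 measured macrophage genes 2 were lower and 0 higher, against 0.127% of all genes. All 17 differences were below 0, while 5070 of all 11033 genes had differences above 0. The list's median was -0.68, or -0.50 with the array set as a fixed block and -0.40 with that block and without tumor 115. Adgre1, which encodes the surface marker F4/80, had 7.85, 7.79, 7.65, 7.98 and 8.04 in the high-Ckm and 8.15, 9.18, 8.50, 9.41 and 9.10 in the low-Ckm tumors. The classes were separate, and the level was 2.01-fold lower in the high-Ckm tumors (log2 difference -1.01, SE 0.22, adjusted p = 0.0369), and another probe had -0.79 (adjusted p = 0.0814). Aif1, another macrophage marker, was 2.24-fold lower (adjusted p = 0.0369). Neither Adgre1 nor Aif1 passed with the array set as a random block, with the authors' normalized values or without tumor 115. Spi1, the transcription factor PU.1 of myeloid and B cells, was 1.76-fold lower (adjusted p = 0.0327). C1s1, a complement protease, was 2.25-fold lower (adjusted p = 0.0269) and above background in 1 high-Ckm tumor, with another probe at a log2 difference of -0.94 (adjusted p = 0.0745), and Lgmn, a lysosomal protease, was 1.48-fold lower (adjusted p = 0.0409).

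Genes of antigen presentation and lymphocytes had larger differences that did not pass. Of 11 measured 0 were called (0 higher and 10 lower at an unadjusted p under 0.05, against 9.68% and 8.77% of all genes). The median log2 difference over the list was -1.26. Cd74, the invariant chain of MHC class II, had 11.92, 12.90, 12.79, 12.67 and 12.93 in the high-Ckm and 12.58, 13.32, 13.84, 14.03 and 14.40 in the low-Ckm tumors (log2 difference -0.99, SE 0.38, adjusted p = 0.174). Cd3g, a T cell receptor subunit, had 4.75, 6.10, 5.28, 5.11 and 5.62 against 5.44, 5.79, 7.55, 7.71 and 8.55 (log2 difference -1.64, adjusted p = 0.106), with tumors 65, 174 and 115 high and tumors 95 and 165 within the range of the high-Ckm class. Ciita, the switch of MHC class II expression, differed by -1.47 (adjusted p = 0.108). Among the other called genes that were lower, Cavin4, a caveolar protein of muscle, had a log2 difference of -0.42 (adjusted p = 0.0404). Morf4l1, a chromatin protein, had -0.34 (adjusted p = 0.0268), but its second probe had 0.02 (adjusted p = 0.967). Slitrk6, a neuronal membrane protein, was not above background in any high-Ckm tumor and was at least 1.12-fold higher in the low-Ckm tumors (adjusted p = 0.0452).

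**Figure D4:**
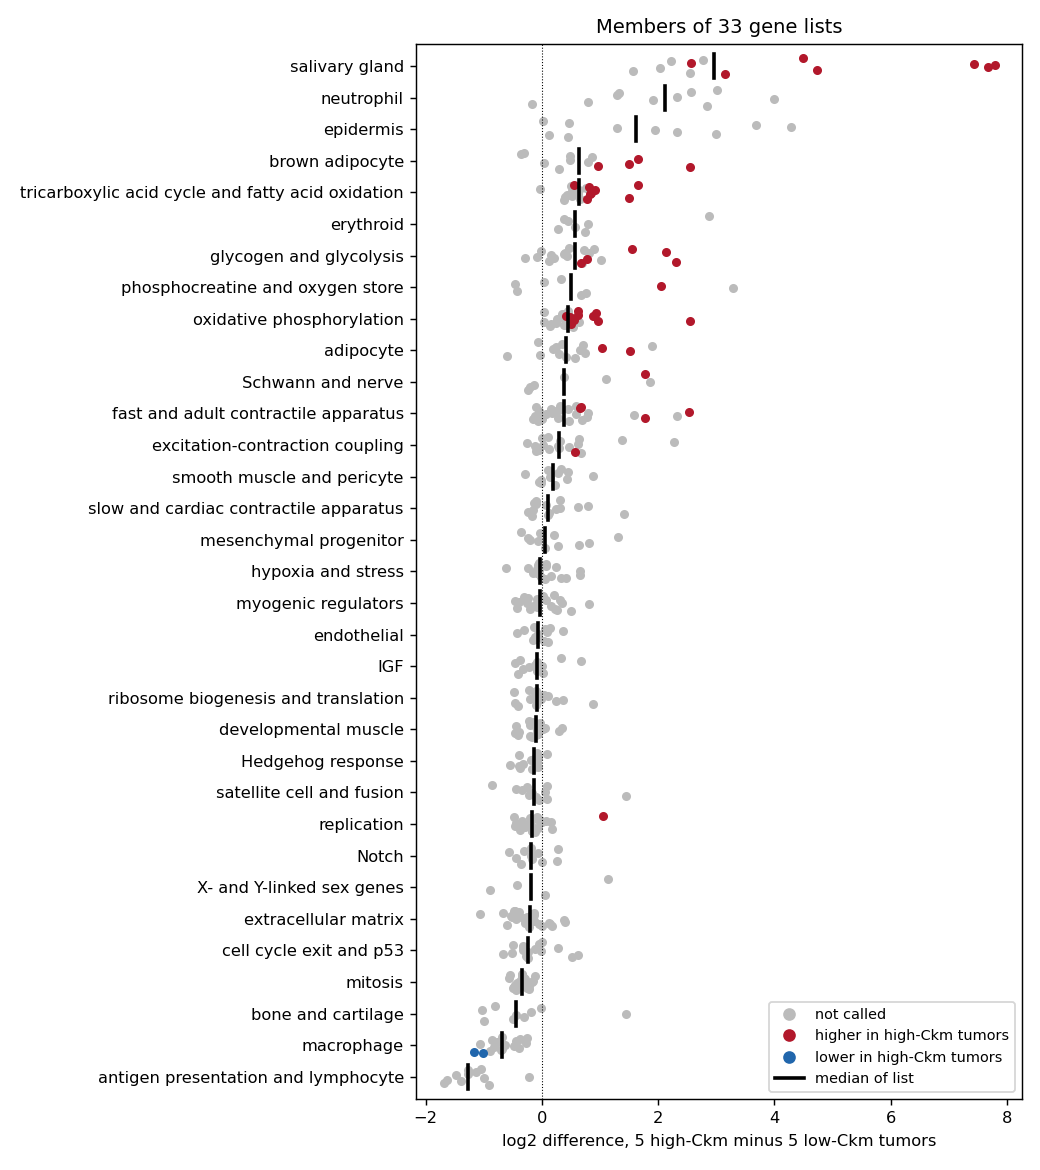
Log2 difference (high-Ckm minus low-Ckm tumors, 5 each) of every measured member of 33 gene lists, with members called higher in red, called lower in blue and the list's median as a bar. The salivary gland list has the highest median, 2.96, and antigen presentation and lymphocyte the lowest, -1.26.

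The largest differences among called genes with separate classes were in Lipf, Dcpp1 and Dcpp2, genes of salivary and related glands. A gene not above background in any tumor of a class has only a bound there, given as at least N-fold: the mean of the bright class over the mean of the dim class, where each dim tumor counts at the larger of the gene's own signal and the faintest detected signal on its array. Where only some low-Ckm tumors had a gland gene or Sox10 above background, their number is given, with the fold that the same rule gives. Phkg1, Tuba8 and St8sia5, above background in 4 low-Ckm tumors each, had 4.09-fold, 4.37-fold and 1.97-fold by this rule. Fbp2, Ppargc1a and the uncalled Myh4, above background in 3 each, had 4.75-fold, 2.79-fold and 4.22-fold. The uncalled S100a9, above background in 2, had 6.87-fold. Of the 12 measured salivary genes 7 were higher and 0 lower, against 1.32% and 0.127% of all genes. Their median log2 difference was 2.96. Several entered the test only through arrays on which they are high, so this count describes them and supports nothing. Dcpp1, a secreted protein of sublingual gland, had 13.81, 13.26, 14.21, 12.96 and 9.01 in the high-Ckm, 14.83, 5.68, 12.81, 5.45 and 7.68 in the middle and 4.52, 5.56, 4.66, 4.44 and 5.66 in the low-Ckm tumors. The high-Ckm tumors were all above the low-Ckm tumors, tumor 64 was lowest among them, and among the middle tumors 104 and 164 were as high as the high-Ckm class. In 2 of the 5 low-Ckm tumors Dcpp1 was above background, and the difference was 205-fold as measured (adjusted p = 0.0275) and 153-fold by that rule. Bpifa2, a secreted protein of parotid gland, was in no low-Ckm tumor above background and had 6.09, 8.09, 11.07, 10.55 and 11.56 in the high-Ckm tumors, at least 18.3-fold higher (adjusted p = 0.0157). Here tumor 64 was highest and tumor 90 lowest, and all middle tumors were at 4.47 to 4.97.

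Genes of this kind did not share 1 order over the tumors. In tumor 64 Dcpp2, Dcpp3, Smgc, Fxyd3 and Cldn10 had their lowest levels of the high-Ckm class, 7.35, 6.17, 4.63, 6.27 and 7.31, while Lipf, Amy1 and Bpifb1 had their highest, 14.76, 10.38 and 14.22. In middle tumor 104 Lipf and Dcpp2 were at 15.26 and 14.68 and Amy1 at 5.08. Within the list, Dcpp2 was above background in 2 low-Ckm tumors and 222-fold higher (adjusted p = 0.0395, 195-fold by the rule above). Dcpp3 was at least 98.0-fold higher (adjusted p = 0.0478), and Smgc, a submandibular gland protein above background in 4 of the 5 high-Ckm tumors, was at least 12.98-fold higher (adjusted p = 0.0472), although another Smgc probe did not pass (log2 difference 1.69, adjusted p = 0.0934). Amy1, salivary amylase, was above background in 2 low-Ckm tumors and 8.86-fold higher (adjusted p = 0.0207, 7.57-fold by the rule), and Krt18, a keratin of glandular epithelium, was at least 3.73-fold higher (adjusted p = 0.0322). Outside the list, Lipf, a gastric and lingual lipase, was above background in 2 low-Ckm tumors and 236-fold higher (adjusted p = 0.0223, 189-fold by the rule). Sbpl, above background in 1 low-Ckm tumor, was 140-fold higher (adjusted p = 0.0217, 132-fold by the rule), and Bpifb1, above background in all 5, was 16.9-fold higher (adjusted p = 0.0369). Cldn10, a tight junction protein above background in 2 low-Ckm tumors, was 30.7-fold higher (adjusted p = 0.0336, 27.7-fold by the rule), and Fxyd3, a regulator of the sodium pump above background in 1, was 19.9-fold higher (adjusted p = 0.0385, 14.7-fold by the rule). Wfdc18, a secreted protein with a protease inhibitor domain, was at least 22.2-fold higher (adjusted p = 0.0188), and the unnamed transcript 2310057J18Rik at least 57.4-fold (adjusted p = 0.0136). Sbpl was the only gene to pass with the array set as a fixed block and tumor 115 left out, a fit that called 1 gene higher and 0 lower.

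Genes of epidermis and neutrophils moved alongside without a call. Of 10 measured epidermal genes 0 passed (5 higher and 0 lower at an unadjusted p under 0.05, against 9.68% and 8.77% of all genes). Their median log2 difference was 1.62. Krt14, the keratin of basal epidermis, had 9.95, 10.94, 11.36, 8.60 and 7.91 in the high-Ckm and 7.46, 5.63, 8.04, 6.63 and 6.04 in the low-Ckm tumors (log2 difference 2.99, SE 0.90, adjusted p = 0.100). Lor, loricrin of the cornified layer, differed by 3.68 (SE 1.09, adjusted p = 0.0965) and Krtdap, a keratinocyte protein above background in 4 high-Ckm tumors and in no low-Ckm tumor, was at least 10.01-fold brighter in the high-Ckm class, with overlapping classes (adjusted p = 0.122). Of 10 measured neutrophil genes 0 passed (9 higher and 0 lower at that level), with a median of 2.12. S100a9, a calcium-binding protein of neutrophil granules that keratinocytes also make, had 3.01 (SE 0.87, adjusted p = 0.0869). Of the epidermal genes 4, and of the neutrophil genes 5, were above background in no low-Ckm tumor. They entered the test through arrays on which they are bright, so the counts and medians of both lists are descriptions and support nothing.

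**Figure D5:**
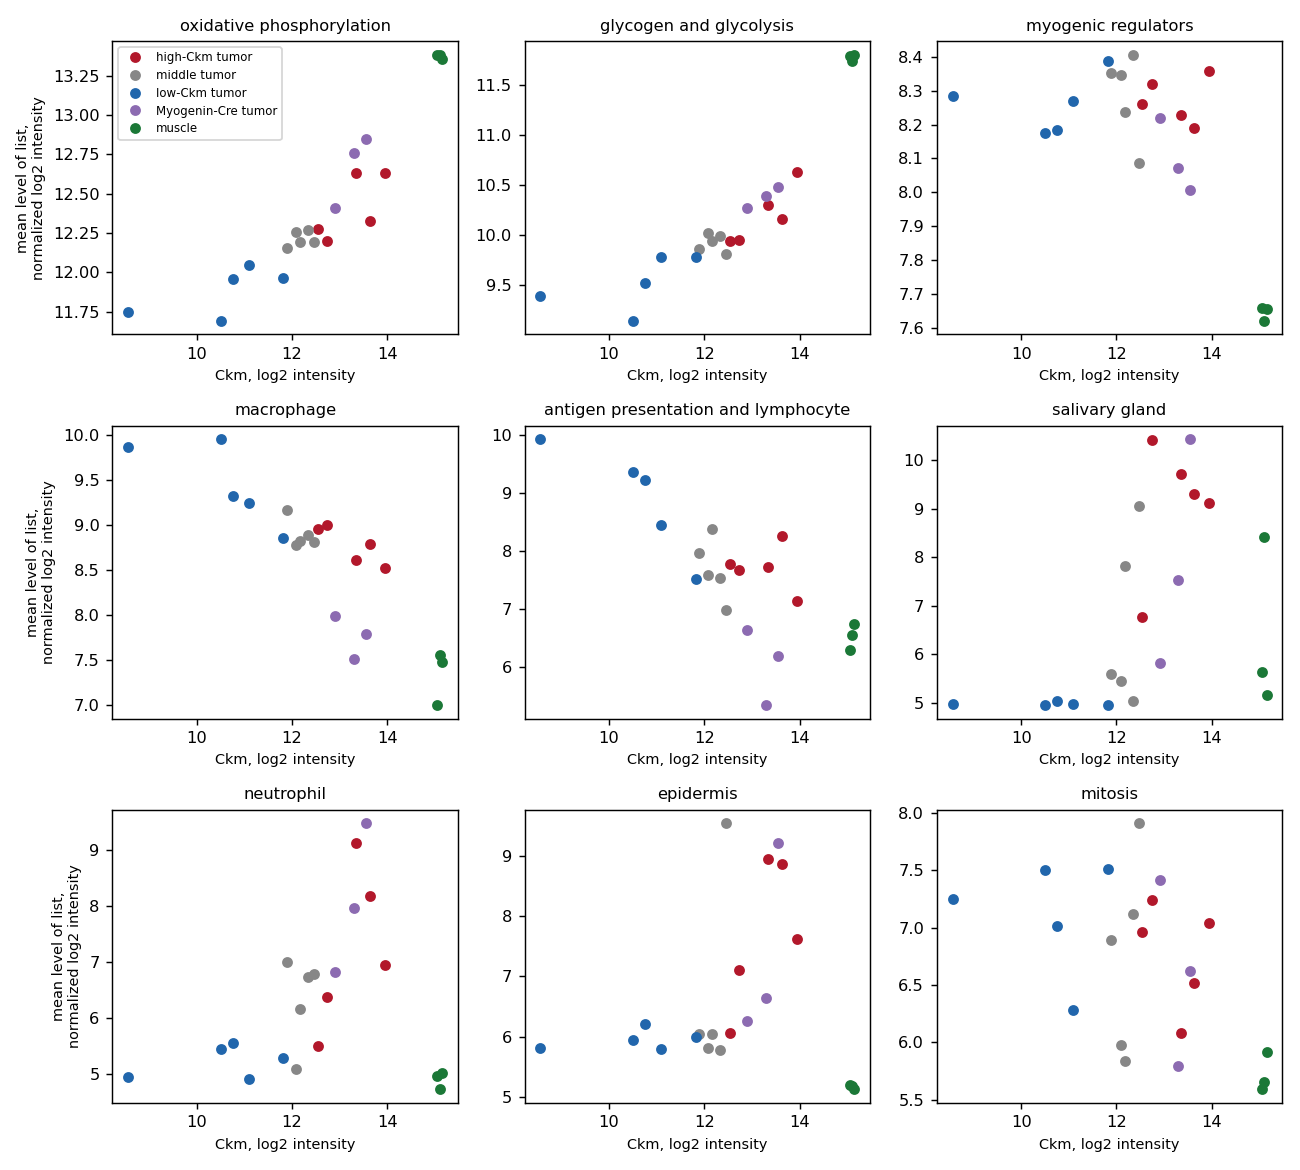
Mean normalized log2 level of 9 gene lists against Ckm on all 21 arrays, coloured by class or group. The oxidative phosphorylation list runs from 11.69 to 12.63 over the 15 tumors with muscle at 13.36 to 13.38, the salivary gland list stays at 4.95 to 5.04 in the low-Ckm tumors and scatters from 6.77 to 10.42 in the high-Ckm tumors.

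Both the oxidative phosphorylation and the salivary list went with Ckm over the tumors. The mean of the oxidative phosphorylation list was 12.20 to 12.63 in the high-Ckm, 12.15 to 12.27 in the middle and 11.69 to 12.05 in the low-Ckm tumors, and its Spearman and Pearson correlations with Ckm over the 15 tumors were 0.92 and 0.89, or a Pearson r of 0.87 without the 2 tumors farthest from the median Ckm. The salivary mean had a Spearman correlation of 0.87 and a Pearson r of 0.72, or 0.78 without those 2 tumors. All these values come from the same arrays and are descriptions. Middle tumor 104 had the highest salivary and epidermal means of its class, 9.06 and 9.54, and also its highest Ckm, 12.47, and its highest phosphocreatine list mean, 11.45 against 10.77 to 10.99 in the others. Its Ckmt2 level was 11.89 and its fast contractile mean, 11.28, was the lowest of the class, while middle tumor 144 had salivary and epidermal means of 5.04 and 5.78 and a Ckmt2 level of 12.89. No test was made of whether the muscle and salivary genes are arranged differently. In muscle samples 1, 2 and 3 Ckmt2 was at 13.97, 14.01 and 14.09 and Lipf at 4.31, 4.59 and 4.38. Dcpp1 was at 4.77, 13.15 and 6.32 and Bpifa2 at 6.36, 15.15 and 9.83, so muscle sample 2 was far above the others in both.

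Adipocyte genes were examined because aP2 is an adipocyte gene. Of 15 measured adipocyte genes 2 were higher, against 1.32% of all genes, and 0 lower, with a median log2 difference of 0.41. The 2 were Dgat2, which makes triglyceride (2.85-fold, adjusted p = 0.0223), and Lpl, lipoprotein lipase, which muscle also expresses (2.05-fold, adjusted p = 0.0369), although another Lpl probe had a log2 difference of 0.12 (adjusted p = 0.616). Adipoq, the adipocyte hormone adiponectin, had 8.70, 9.62, 9.79, 9.36 and 7.07 in the high-Ckm and 8.78, 9.35, 6.43, 9.003 and 8.12 in the low-Ckm tumors, overlapping throughout (log2 difference 0.57, SE 0.61, adjusted p = 0.661). In the brown adipocyte list 4 of 12 measured genes were higher, against 1.32% of all genes, and 0 lower. The 4 were Cox7a1, Cox8b, Cpt1b and Ppargc1a, which muscle mitochondria share. Sox10, a transcription factor of Schwann cells, was above background in 1 low-Ckm tumor and was 3.42-fold higher (adjusted p = 0.0217, 2.76-fold by the rule for dim tumors). It was the only one of 7 measured Schwann and nerve genes to pass, against 1.32% of all genes called higher.

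The remaining lists held no called gene under the limma fit. These were IGF (13 measured, 1 higher and 3 lower at an unadjusted p under 0.05), Notch (12, with 0 and 3), ribosome biogenesis and translation (19, with 2 and 3), extracellular matrix (28, with 0 and 5), mesenchymal progenitor (11, with 3 and 0), endothelial (16, with 0 and 1), smooth muscle and pericyte (12, with 0 and 0), erythroid (7, with 1 and 0), bone and cartilage (9, with 1 and 2), hypoxia and stress (20, with 0 and 1) and the X- and Y-linked sex genes (4, with 0 and 0). Col1a1, the main chain of type I collagen, had a log2 difference of 0.18 (SE 0.26, adjusted p = 0.768).

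Levels in muscle, which shared the normalization but not the fit, were set beside those of the called genes. Of the 146 genes that were higher, 124 (84.9%) were more than 2-fold higher in muscle than in the middle tumors, against 1434 of all 11033 genes, and in 123 of these 124 the mean of the high-Ckm tumors was still below that of muscle. The 124 included the salivary genes Bpifa2 and Amy1 and the transcript 2310057J18Rik, so they are not all muscle genes. In muscle samples 1, 2 and 3 Bpifa2 was at 6.36, 15.15 and 9.83. Amy1 was at 9.59, 11.85 and 9.66 there, and 2310057J18Rik at 4.41, 12.35 and 5.17. In 10 of the 146 muscle was more than 2-fold below the middle tumors, against 1774 of all 11033 genes. The 10 were Bpifb1, Cldn10, Dcpp1, Dcpp2, Dcpp3, Krt18, Lipf, Sbpl, Smgc and Wfdc18. Among the 14 genes that were lower, 7 were more than 2-fold lower in muscle than in the middle tumors, against the same 1774 of all 11033 genes. Between neighbouring classes 0 genes passed: high against middle had 543 genes higher and 564 lower at an unadjusted p under 0.05, and middle against low had 629 and 897.

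The Myogenin-Cre tumors, whose Ckm lay in the range of the high-Ckm class, were set beside that class for several called genes. Ckmt2 was at 13.57, 13.72 and 12.65 in Myogenin-Cre tumors 41, 43 and 42, against 12.52 to 13.29 in the high-Ckm tumors. Cox7a1 was at 13.70, 13.40 and 12.63, against 12.20 to 13.40. Fbp2, at 10.72, 10.29 and 9.68, was above every high-Ckm tumor (6.56 to 8.44). Mybpc2, at 9.86, 9.08 and 10.11, was within or below their range (9.65 to 10.90). Adgre1, at 6.44, 6.10 and 6.91, was below every aP2-Cre tumor. Dcpp1 was at 14.53, 11.21 and 7.21, so the salivary signal also varied there. These arrays share set 3 with 3 aP2-Cre tumors and no test was made.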

How the data were processed

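RNA was measured on Illumina mouse bead arrays after Trizol extraction, RNeasy clean-up, DNase I treatment and biotin labelling, per the labels' protocols. The table deposited without normalization holds a linear intensity and a detection p-value per probe and array. Another deposited table gives the authors' intensity values after quantile normalization within 5 sets of arrays, as identical distributions inside each set show. The submitters' processing notes name BeadStudio, and no genome build is given in the sources used. From the non-normalized intensities, log2 levels were computed with neqc in limma 3.58.1 (R 4.3.3): normexp background inferred from the detection p-values, offset 16, quantile normalization over 21 arrays. Probes with a detection p under 0.01 on at least 3 arrays were kept (19655 of 45281). Of all probes, 34885 carry 1 gene symbol, 18 several and 10378 none, and 34807 symbols matched RefSeq names of GRCm38.p6. The brightest probe over all arrays stood for each gene, which gave 11033 genes with Ckm left out.

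The limma fit (two-sided, with lmFit, contrasts.fit and eBayes with an intensity trend) held the 15 aP2-Cre tumors in 3 classes of 5, with Benjamini-Hochberg adjustment over all genes at 0.05. On simulated data of this comparison over 11033 genes it recovered 82% of genes changed 2-fold and 99% of those changed 4-fold. Of its calls there, 5.73% were unchanged genes. Whether these rates hold for the measured arrays was not tested. The tumors, gene lists and tests were chosen with earlier results of these data known. Named genes were a list of anchor genes, the 12 largest called differences in each direction with separate classes, up to 4 members per list and direction with the smallest adjusted p, up to 3 called members that went against their list, and the 6 genes with the highest and the 6 with the lowest Spearman correlation with Ckm, of which the text gives those its results turn on. Relations of lists with Ckm carry no p-value, since the tumors were ranked on these arrays. Of 32 anchor genes tested by two-sided exact permutation over 252 splits of the tumors, 9 had an unadjusted p under 0.05 and 0 after Benjamini-Hochberg adjustment; p ran from 0.00794, the smallest it can give, in 3 genes to 0.984. Alternative settings changed how background was corrected, how arrays were normalized, the source of the values, which probes were kept and how they stood for genes, the samples in the fit, array weights, the treatment of array sets and the choice of tumors, each left out in turn. The number of arrays limits the precision.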

Additional observations from a re-analysis of the deposited data

Results flagged for a closer look

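Over 234 sets of 5 tumors (78 named genes in the high-Ckm, middle and low-Ckm classes), 20 had 1 tumor whose distance to its nearest neighbour exceeded the share of the class's range that Dixon's test allows at the 95% level. Chance marks about 1 in 20 such sets.

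Tumor 64 stood apart within the high-Ckm class by low levels of Dcpp1 (9.009, the others 12.96 to 14.21), Dcpp2 (7.345), Dcpp3 (6.166), Fxyd3 (6.27) and Cldn10 (7.313), and by a high level of Cdkn1a (12.91). Middle tumor 104 stood apart from the other middle tumors by high levels of Lipf (15.26), Bpifb1 (13.88), Krt14 (11.99), Lor (12.2), Krtdap (11.72, the others 4.27 to 4.53) and Ptch1 (9.761). Middle tumor 144 had the highest Cox7a1 of its class (12.51). Within the high-Ckm class, tumor 90 was lowest in Slitrk6 (4.493) and Cd74 (11.92), tumor 68 was lowest in Myod1 (8.617), and tumor 89 was highest in Sox10 (8.244). Within the low-Ckm class, tumor 174 was lowest in Slc2a4 (6.417) and Ryr1 (11.99), and tumor 95 was lowest in Ccnd1 (11.14).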

How the results depend on the processing

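Against 146 genes higher and 14 lower, median centering in place of quantile normalization gave 252 and 2, the authors' normalized values 318 and 0, no detection filter 73 and 5, every probe tested separately 179 and 23, the 10 tumors alone 31 and 0, all 21 arrays in 1 fit 214 and 55, array weights 126 and 30, the array set as a fixed block 0 and 0, and the set as a random block 135 and 8. With median centering and with the authors' values the median of all genes moved to 0.15 and 0.16 on the log2 scale, and 99.2% and 100% of calls were higher, against 91.3%. Redrawing 5 against 5 without tumor 115 gave 34 and 1, 4 against 4 gave 530 and 438, 7 against 7 gave 18 and 0, a slope on Ckm over 15 tumors 604 and 489 and over 14 tumors 406 and 165. The set as a fixed block without tumor 115, added after the data were seen, gave 1 and 0. Leaving out 1 tumor each gave 7 to 322 higher and 0 to 326 lower. Plain quantile normalization, a filter of 5 tumors and classes drawn after background correction moved neither count by over 1.5 times. The cause of these shifts was not tested. Every gene named as called kept its direction under these alternatives, except that, with every probe tested, another probe each of Sdhb and Morf4l1 had log2 differences of -0.23 and 0.02 (a further Sdhb probe had 0.82). The alternatives reuse the arrays on which the genes were called, so a kept direction adds no support. Of 19 named called genes with other probes, every other probe passed in 10, and in 9 at least 1 did not: Sdhb, Idh3a, Fh1, Ung, Lpl, Smgc, Adgre1, C1s1 and Morf4l1.

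Of 33 list medians (log2), 16 kept their sign under all 26 alternatives, among them oxidative phosphorylation (0.33 to 0.74), macrophage (-0.86 to -0.24), antigen presentation and lymphocyte (-1.68 to -0.61), epidermis (0.64 to 2.14), neutrophil (0.94 to 2.74) and salivary gland (1.91 to 3.44). The other 17 turned under at least 1, among them slow contractile (-0.07 to 0.36), myogenic regulators (-0.08 to 0.14), developmental muscle (-0.22 to 0.12), Hedgehog response (-0.25 to 0.08) and mitosis (-0.54 to 0.06).

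The sign turned for these uncalled genes, in log2 differences. Under median centering and the authors' values Acta1 had 0.047 and 0.074, Mef2c 0.145 and 0.159, Myl4 0.072 and 0.099, Gli2 0.093 and 0.157 and Igf2 0.049 and 0.077, and under the authors' values Cdkn1a had 0.013. With 7 against 7, Gli2 had 0.017, Top2a 0.032, Adipoq -0.077, Col1a1 -0.198 and the median of the replication list 0.027, and that median was 0.050 under the authors' values. Gli2 had a slope of 0.037 over 15 tumors, and Col1a1 a slope of -0.0083 over 14. Col1a1 had -0.279 with the set as a fixed block, -0.192 with that block and without tumor 115, and -0.061 with classes redrawn without it. Mef2c had -0.188 to 0.012 with 1 tumor left out, above 0 only without tumor 165. No paired analysis was possible because the tumors of both classes carry different mouse numbers. Arrays give no read depth, and a gene near background has only a bound.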
